A study of Mus musculus with 6 samples.

Results

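The 39 interferon-stimulated genes described here are transcripts that cells make more of after an interferon signal, and they were picked as a list of gene symbols, with earlier results of these data known. All 39 symbols were found among the 24422 genes of the count tables, and all 39 had enough counts to be tested. They were measured by RNA sequencing of poly-A RNA from whole kidneys of C57BL/6 mice at postnatal day 60, in 3 control and 3 TfR1KO;KspCre libraries. Controls were wild type, and their labels give neither a Cre nor a floxed allele. In the TfR1KO;KspCre group, called knockout below, the transferrin receptor gene Tfrc carried floxed exons around its transmembrane domain (Tfr1f/f), and KspCre, a Cre recombinase under the Ksp-cadherin promoter, deleted them in the distal nephron. Kidney cells where this promoter is silent are not targeted, and whole-kidney RNA holds theirs as well. Both groups ate an iron sufficient diet with 220 ppm iron. The groups are described as 3 biological replicates each, and p-values measure the spread between these libraries.

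Interferons are secreted proteins that warn tissue of viral or misplaced nucleic acid. Type I interferons bind the receptor pair IFNAR1 and IFNAR2, the kinases JAK1 and TYK2 then phosphorylate STAT2, which joins IRF9 in a complex that binds interferon-stimulated response elements in promoters. The induced proteins sense viral RNA, block translation or budding, tag proteins with ISG15 and feed peptides to MHC class I. In kidney, tubule cells, endothelium and infiltrating leukocytes can all carry this response.

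Counts per library ran from 11501053 to 21001341, with the smallest in knockout 3. Tfrc, the targeted gene, had 2783, 2856 and 1032 counts in controls and 4368, 1713 and 530 in knockouts, so that its level gave no check of the labels (log2 fold change -0.11, adjusted p = 0.911, edgeR's quasi-likelihood test). Kidney markers were present in all libraries, with 3376 counts or more of the thick ascending limb gene Umod. Control 2 had 52 counts of Xist and between 518 and 1451 counts of the Y-linked genes Ddx3y, Eif2s3y, Kdm5d and Uty. The other 5 libraries had at least 10458 counts of Xist and at most 4 of each Y-linked gene. Sex was not among the labels.

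Most of the interferon-stimulated genes were higher in knockouts. The test called 28 of the 39 higher at an adjusted p under 0.05 and 0 lower, where 10.6% of all 15171 genes tested were called higher and 6.64% lower. Their median log2 fold change was 1.43, beside 0.02 for all genes tested, and single members ranged from -0.39 for Samd9l to 2.78 for Oas3. In 33 members each knockout library lay above each control, which 23.8% of all genes tested did. In 1 member, Samd9l, each knockout lay below each control, as 22.2% of all genes did. The groups were thus separate for 34 of the 39 members, beside 46% of all genes tested, and they overlapped in Trim25, Ifit2, Gbp3, Rsad2 and Cmpk2.

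The adjusted p-values of the 28 called members lay between 0.0271 and 0.0423, close to the threshold, and 34 of the 39 had an unadjusted p under 0.05, as did 5862 of all 15171 genes tested. Leaving out 1 library ended almost all calls over the whole table, those of the members included. Without control 1, 2 or 3 edgeR called 0 of all genes tested, without knockout 2 it called 73 and without knockout 3 it called 2, and 0 of the 39 members were among them. In these 5 fits the members' median log2 fold change was 1.24 to 1.56, and 32 to 34 of them had an unadjusted p under 0.05, beside 4270 to 4823 of the 15408 to 15624 genes tested. Without knockout 1, 5332 genes and 32 members were called. With the Xist-to-Y ratio as a covariate 0 of all genes tested were called, and the members' median was 1.34, with 32 at an unadjusted p under 0.05 beside 4211 of all 15171 genes.

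**Figure D1:**
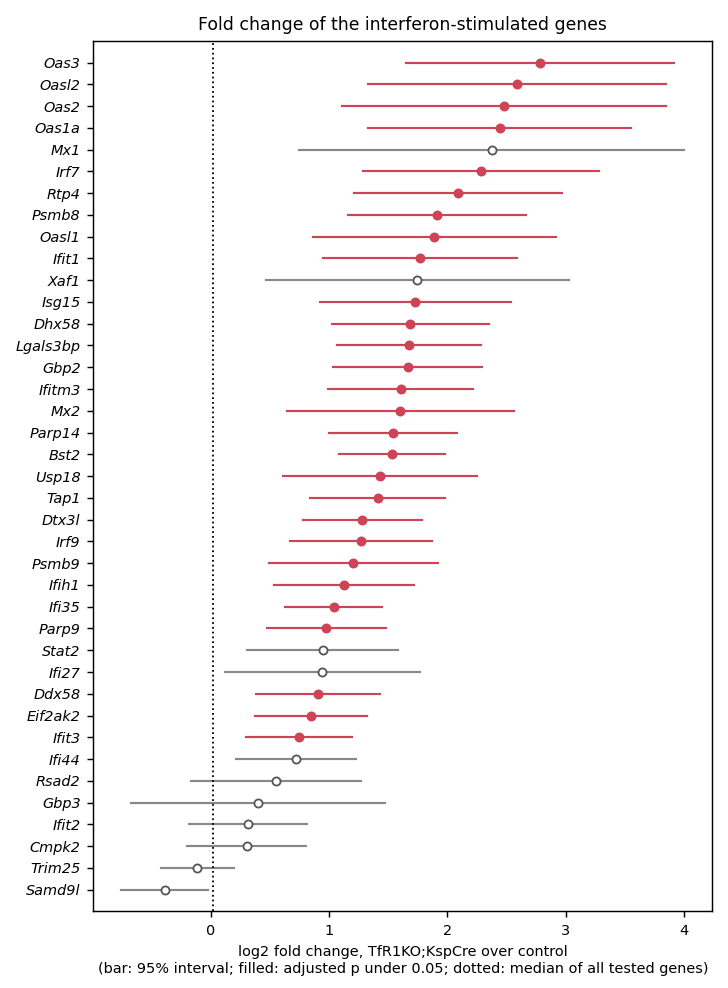
Log2 fold change of each of the 39 genes (x axis, knockout over control, 3 libraries a group), ordered by size, with its 95% interval. Filled points are the 28 genes called higher by edgeR, open points the 11 not called, and the dotted line is the median of all genes tested. The 2-5A synthetases Oas3, Oasl2, Oas2 and Oas1a stand at the top, from 2.44 to 2.78, and Samd9l is the lowest, at -0.39.

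A motif of the interferon response was more frequent among the promoters of the 39 genes than among those of all genes. The 39 were listed as genes that respond to interferon, so this describes the list and not these libraries. The core of the interferon-stimulated response element, a pair of GAAA blocks with any 2 bases between them (a pair of TTTC blocks on the other strand), was searched on both strands in the window from 250 bases before to 50 bases after each gene's start (RefSeq, GRCm38.p6). Of the 39 genes, 30 had a promoter in that table, and 14 of these (46.7%) held the motif, against 3.99% of all 27025 genes with a promoter. Among members called higher the motif was in 11 of 21 (52.4%), and among members not called it was in 3 of 9 (33.3%). Whether these shares differ was not tested. The core of the gamma-activated site, TTCNNNGAA, was in 7 of the 30 (23.3%), against 9.55% of all genes, and 2 of its 7 matches overlapped the first motif. A match is a stretch of letters and not a measured binding site.

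The stretches around the motif are shown for the 6 called members with the largest test statistic that held it before their start, because these letters are what the interferon-activated complex is known to read. Capitals mark the motif and each stretch runs 5′ to 3′ along the gene. Bst2 was read from the minus strand of chr8:71537567-71537622, Gbp2 from the plus strand of chr3:142620584-142620633 and Oas3 from the minus strand of chr5:120777705-120777754. Oas1a was read from the minus strand of chr5:120907526-120907565, Ifit1 from the plus strand of chr19:34640765-34640833 and Isg15 from the minus strand of chr4:156200855-156200916. All of these positions are on GRCm38.p6.
Bst2: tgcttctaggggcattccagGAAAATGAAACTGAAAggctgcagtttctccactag
Gbp2: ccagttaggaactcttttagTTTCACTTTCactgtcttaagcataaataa
Oas3: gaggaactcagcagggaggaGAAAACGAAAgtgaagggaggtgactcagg
Oas1a: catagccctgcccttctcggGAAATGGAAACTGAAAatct
Ifit1: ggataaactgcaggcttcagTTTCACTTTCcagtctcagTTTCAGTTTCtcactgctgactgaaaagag
Isg15: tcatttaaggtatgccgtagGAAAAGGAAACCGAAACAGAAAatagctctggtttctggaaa

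The first base of the match nearest to the start lay 124 bases before it in Bst2, 59 in Gbp2, 75 in Oas3, 14 in Oas1a, 85 in Ifit1 and 66 in Isg15. Gbp2 and Ifit1 carried the reverse complement. In Isg15 the GAAA blocks followed each other with 3 overlapping matches, and Bst2 and Oas1a each had 2 overlapping ones. Ifit1 had 2 separate matches.

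In the values that follow, levels are CPM, that is TMM-normalised counts per 1e6 counts of a library, given for libraries 1 to 3 of each group in that order, and log2 fold changes are knockout over control with a 95% interval. In whole-kidney RNA, more cells of a type and more RNA per cell cannot be told apart.

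**Figure D2:**
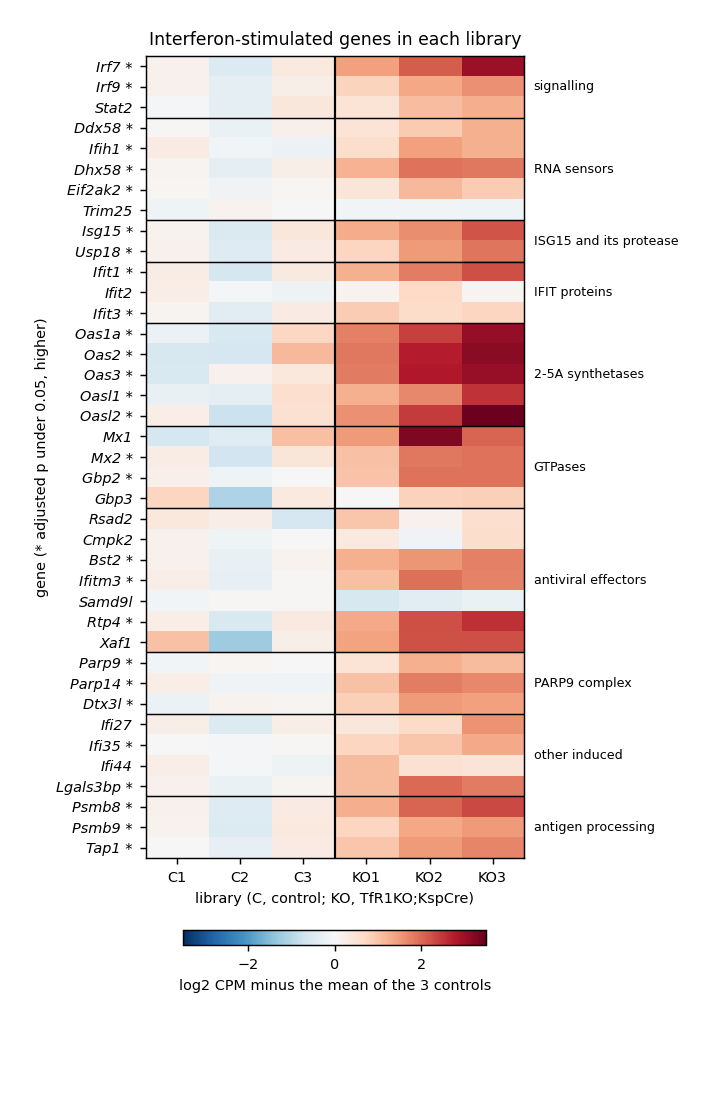
Level of the 39 genes in each library (columns, C control and KO knockout) as log2 CPM minus the mean of the 3 controls, with genes grouped by role and an asterisk for those called higher. Knockout columns are red for most rows, with member medians of 1.00 in knockout 1 and 1.72 in knockout 3, while control 2 is pale blue in most rows, with a median of -0.30.

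Of the members that carry the signal from the receptor to the genome, 2 of 3 were called higher. Irf7, the transcription factor that amplifies type I interferon production, was at 20.5, 13.3 and 23.6 CPM in controls and 50.5, 81.2 and 148 CPM in knockouts. Its lowest knockout was above its highest control, and it rose by 2.28 on the log2 scale (95% interval 1.28 to 3.28, adjusted p = 0.0297, edgeR). Irf9, the DNA-binding subunit of the interferon-activated complex, was at 34.2, 24.4 and 35.9 CPM in controls and 53.2, 79.8 and 95.1 CPM in knockouts, a rise of 1.27 (0.67 to 1.87, adjusted p = 0.0311). Stat2, which joins it, was at 36.8, 30.6 and 51.5 CPM against 53.7, 82.6 and 92.9 CPM. Its groups did not overlap either, but control 3 lay just under knockout 1 and the adjusted p was 0.0536 (log2 fold change 0.95, 0.31 to 1.59). In each of the 3 genes, control 2 was the lowest library and knockout 3 the highest.

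Of the 5 proteins that sense viral RNA or act on that sensing, 4 were called higher. Dhx58, which encodes LGP2, a helicase that tunes the other sensors, rose the furthest, from 4.77, 3.58 and 5.16 CPM to 10.4, 16.9 and 16.2 CPM (log2 fold change 1.69, 1.02 to 2.35). Ifih1, the sensor MDA5 of long double-stranded RNA, went from 20.4, 15.9 and 14.7 CPM to 25.8, 45.4 and 40.1 CPM. Ddx58, the sensor RIG-I, went from 50.1, 41.5 and 54.5 CPM to 67.0, 91.0 and 116 CPM. Eif2ak2, the kinase PKR that halts translation, was at 30.03, 26.0 and 29.8 CPM against 38.3, 62.9 and 53.4 CPM. Knockout 1 was the lowest knockout for each of these 4, and still above each control. Their adjusted p-values ran from 0.0278 for Dhx58 to 0.0404 for Ddx58 (edgeR), with log2 fold changes of 1.13 for Ifih1, 0.90 for Ddx58 and 0.85 for Eif2ak2. Trim25, the ubiquitin ligase that activates RIG-I, stood apart at 114, 137 and 127 CPM in controls and 118, 117 and 114 CPM in knockouts. Its groups overlapped, and the interval of its log2 fold change was -0.42 to 0.19 (the value was -0.11 with TMM and 0.16 with library size alone).

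**Figure D3:**
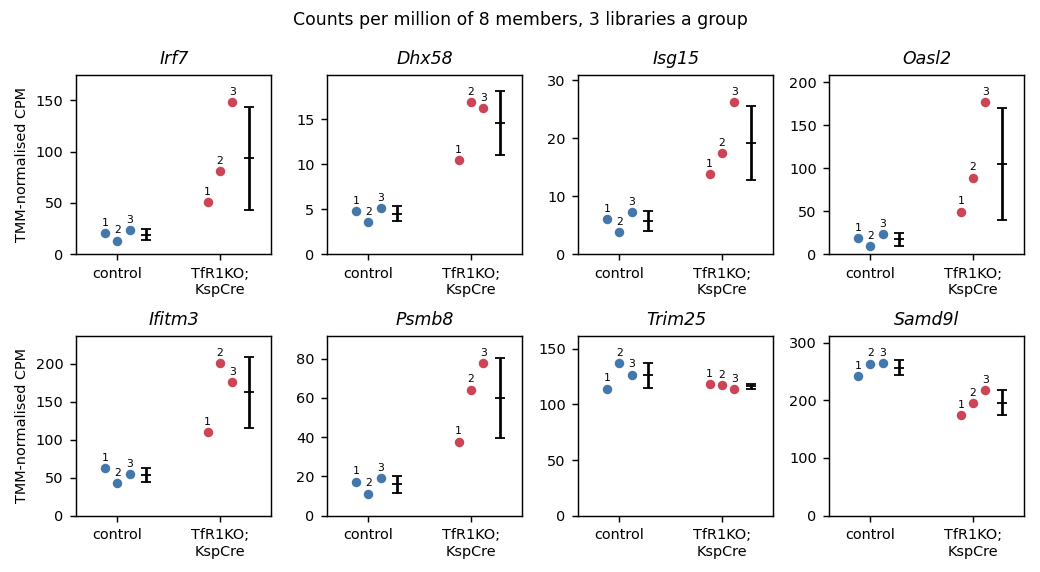
TMM-normalised CPM of 8 of the genes (y axes, linear from 0) in each library, numbered by replicate, with the group mean and SD (n = 3) beside the points. In Irf7, Dhx58, Isg15, Oasl2, Ifitm3 and Psmb8 the lowest knockout is above the highest control, in Trim25 the groups overlap, and in Samd9l the 3 knockouts lie between 175 and 218 CPM, under the 3 controls at 242 to 264 CPM.

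ISG15, a ubiquitin-like tag, and USP18, the protease that removes it and also damps the receptor, were both called higher. Isg15 was at 6.11, 3.88 and 7.32 CPM in controls and 13.9, 17.4 and 26.3 CPM in knockouts (log2 fold change 1.73, 0.92 to 2.54, adjusted p = 0.0306, edgeR). Usp18 was at 7.76, 5.05 and 8.46 CPM against 11.8, 19.8 and 25.9 CPM (1.43, 0.61 to 2.25, adjusted p = 0.0394). For both, the lowest knockout was above the highest control.

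The genes of the IFIT proteins, of which IFIT1 binds viral RNA with an unmodified cap, were split. Ifit1 rose from 10.99, 6.05 and 11.5 CPM to 21.7, 31.7 and 44.1 CPM (log2 fold change 1.77, 0.95 to 2.59, adjusted p = 0.0305, edgeR). Ifit3 rose from 45.6, 33.5 and 52.2 CPM to 80.4, 66.9 and 72.7 CPM (0.74, 0.30 to 1.19, adjusted p = 0.0420), and knockout 1 was its highest library. Ifit2 was at 39.2, 31.5 and 29.5 CPM in controls and 35.8, 53.5 and 35.3 CPM in knockouts. For Ifit2, knockouts 1 and 3 lay within the range of the controls, and the interval was -0.18 to 0.81. The 3 genes are neighbours on chromosome 19 with the same strand (mm9, 34625184 to 34724499). Of the 100-base words of the Ifit3 transcript, 68.3% occurred in no other gene (I830012O16Rik held the rest), so that its counts under unique mapping are uncertain.

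The 2-5A synthetases, which make the messenger that activates RNase L, and their like proteins held the 4 largest log2 fold changes of all members, and all 5 were called higher. Oas3 had the largest log2 fold change of all members and the lowest level, with 0.398, 0.705 and 0.840 CPM in controls (8, 12 and 14 counts) and 2.501, 4.96 and 5.97 CPM in knockouts (51, 99 and 78 counts). Oasl2 went from 19.1, 9.63 and 23.8 CPM to 49.8, 89.2 and 177 CPM. Oas2 went from 2.98, 2.94 and 9.84 CPM to 16.3, 30.6 and 40.7 CPM. In each of these, control 3 was the highest control and knockout 3 the highest library, with a gap between the groups. Oas1a went from 2.83, 2.23 and 5.46 CPM to 11.3, 17.7 and 28.3 CPM. Oasl1, which restrains the translation of Irf7 in mice, went from 2.59, 2.53 and 4.74 CPM to 7.601, 10.4 and 18.5 CPM. For both, too, control 3 was the highest control and knockout 3 the highest library, and the groups did not overlap. The log2 fold changes were 2.78 (1.65 to 3.92) for Oas3, 2.59 (1.33 to 3.84) for Oasl2, 2.48 (1.11 to 3.84) for Oas2, 2.44 (1.33 to 3.55) for Oas1a and 1.89 (0.86 to 2.92) for Oasl1, with adjusted p-values of 0.0286 to 0.0369 (edgeR). Single libraries moved some of these values, as Oas2 was at 3.29 without control 3 and Oasl2 at 1.99 without knockout 3, where Mx1 (2.54) had the largest log2 fold change of all members. Summed over the 5 genes, the knockouts stood at 2.90, 5.06 and 8.96 times the control mean. Only 59.5% of the 100-base words of Oas1a were its own, the rest being shared with Oas1g, so that its counts are uncertain.

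Among the GTPases, Gbp2 and Mx2 were called higher and Gbp3 and Mx1 were not. Gbp2, a guanylate-binding protein that acts on vacuoles of intracellular microbes, rose from 17.8, 14.3 and 15.6 CPM to 31.8, 59.9 and 59.5 CPM (log2 fold change 1.66, 1.03 to 2.29, adjusted p = 0.0277, edgeR). Its neighbour Gbp3 was at 53.6, 15.1 and 40.2 CPM in controls and 31.6, 55.6 and 56.6 CPM in knockouts. Control 2 held the lowest and control 1 the highest of the Gbp3 control values, the groups overlapped, and the interval was wide (0.40, -0.68 to 1.47). Mx2, a gene of the dynamin-like GTPases, rose from 3.33, 1.70 and 3.78 CPM to 5.74, 10.4 and 10.7 CPM (1.60, 0.64 to 2.56, adjusted p = 0.0423). Mx1 was at 0.547, 0.646 and 1.98 CPM against 2.75, 9.58 and 4.06 CPM. All of its knockouts were above all controls, but they spread widely (2.37, 0.74 to 4.002, adjusted p = 0.0556). The value was 1.68 without knockout 2 and 3.18 without control 3.

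The remaining antiviral effectors were the most mixed group, with 3 of 7 called higher. Bst2, tetherin, which holds budding virions at the cell surface, went from 24.5, 18.6 and 24.2 CPM to 53.0, 65.3 and 76.0 CPM (log2 fold change 1.53, 1.08 to 1.98, adjusted p = 0.0271, edgeR). Ifitm3, which blocks fusion of viral and cell membranes, went from 62.2, 43.3 and 54.3 CPM to 110.0, 201 and 176 CPM (1.61, 0.99 to 2.22, adjusted p = 0.0277). Rtp4, a receptor transporter with antiviral action, went from 9.59, 5.64 and 10.2 CPM to 20.7, 39.3 and 48.5 CPM (2.09, 1.21 to 2.97, adjusted p = 0.0290). In these 3 genes knockout 1 was the lowest knockout and was still above each control. Samd9l, an inhibitor of translation and growth, had 242, 264 and 264 CPM in controls and 175, 195 and 218 CPM in knockouts. Its 3 knockouts were the lower ones, but the adjusted p was 0.113 (log2 fold change -0.39, -0.76 to -0.02). Rsad2, viperin, which makes a chain-terminating nucleotide, was at 70.4, 63.9 and 36.0 CPM against 106, 60.8 and 82.6 CPM, with overlapping groups and an interval of -0.17 to 1.26. Cmpk2, the kinase encoded beside it, was not called either (0.30, -0.20 to 0.81). Xaf1, a partner of the apoptosis inhibitor XIAP, had no overlap between groups and a log2 fold change of 1.75, but its controls ran from 5.81 to 28.8 CPM and the adjusted p was 0.0647. It was at 2.35 without control 1 and 1.33 without control 2.

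The PARP9 complex joins PARP9, an ADP-ribosyl transferase family member, to the ubiquitin ligase DTX3L. Their genes and Parp14, a further gene of that family, were grouped here, and all 3 were called higher. Parp14 rose from 41.5, 32.9 and 32.8 CPM to 72.9, 123 and 115 CPM (log2 fold change 1.54, 1.00 to 2.08, adjusted p = 0.0276, edgeR). Dtx3l rose from 15.6, 19.7 and 19.1 CPM to 32.3, 51.2 and 48.7 CPM (1.28, 0.78 to 1.78, adjusted p = 0.0278). Parp9 rose from 24.6, 27.5 and 26.4 CPM to 36.2, 61.8 and 56.0 CPM (0.97, 0.47 to 1.48, adjusted p = 0.0332). Knockout 2 was the highest library for all 3, unlike the synthetases. Dtx3l and Parp9 lie on opposite strands and overlap by 682 bases on chromosome 16, and without the strand setting their shared reads cannot be assigned.

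Of the 4 other induced proteins 2 were called. Lgals3bp, a secreted glycoprotein that binds galectins, rose from 82.7, 63.2 and 79.7 CPM to 161, 294 and 266 CPM (log2 fold change 1.68, 1.07 to 2.28, adjusted p = 0.0277, edgeR). Ifi35 rose from 22.0, 20.6 and 22.1 CPM to 36.3, 42.5 and 54.0 CPM (1.04, 0.63 to 1.45, adjusted p = 0.0278). Ifi27 was at 79.2, 48.3 and 79.0 CPM against 88.9, 107 and 201 CPM, where knockout 3 stood far above the rest (0.94, 0.12 to 1.77, adjusted p = 0.0958). Ifi44 was at 34.1, 27.8 and 25.9 CPM against 62.5, 41.9 and 39.9 CPM, where knockout 1 was the highest (0.72, 0.21 to 1.23, adjusted p = 0.0597). In neither of these did the groups overlap.

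All 3 members that prepare peptides for MHC class I were called higher. The immunoproteasome subunit Psmb8 rose from 17.4, 11.2 and 19.1 CPM to 37.8, 64.2 and 77.7 CPM (log2 fold change 1.91, 1.16 to 2.67, adjusted p = 0.0278, edgeR). The subunit Psmb9 rose from 8.45, 5.58 and 9.96 CPM to 13.1, 20.01 and 22.2 CPM (1.204, 0.49 to 1.92, adjusted p = 0.0417). Tap1, which carries peptides into the endoplasmic reticulum, rose from 20.7, 17.0 and 25.3 CPM to 40.4, 58.6 and 68.4 CPM (1.41, 0.84 to 1.98, adjusted p = 0.0284). Each had its lowest value in control 2 and its highest in knockout 3. The 3 genes are neighbours on chromosome 17, and Psmb9 and Tap1 overlap by 200 bases on opposite strands.

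The members form 11 neighbouring pairs within 100 kb (GENCODE M1, mm9), and neighbours did not always share a call. Both members were called in Oas2 with Oas3, Oasl1 with Oasl2, Parp14 with Dtx3l, Dtx3l with Parp9, Psmb9 with Tap1, Tap1 with Psmb8, and Ifit3 with Ifit1. One was called in Gbp2 with Gbp3, Mx2 with Mx1, and Ifit3 with Ifit2. Neither was called in Rsad2 with Cmpk2. Whether the neighbours of a pair differ from each other was not tested.

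Per kilobase of the longest annotated transcript, members spanned a wide range of levels. Ifitm3 was the highest of the 38 members with a transcript length, at 78.5 CPM per kb in controls and 239 in knockouts. Samd9l came next in controls at 48.2 CPM per kb, and was at 36.8 in knockouts. Lgals3bp followed at 32.3 and 103, and Bst2 at 29.4 and 84.8. Oas3 was the lowest, at 0.137 CPM per kb in controls and 0.949 in knockouts. Of the other 2-5A synthetases and like proteins, Oas2 was at 1.33, Oasl1 at 1.51, Oas1a at 1.85 and Oasl2 at 5.61 CPM per kb in controls.

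The knockout libraries were not at equal levels. Summed CPM of the 39 members was 1335, 1119 and 1326 in controls and 1854, 2569 and 2936 in knockouts, which is 1.47, 2.04 and 2.33 times the control mean. Among the knockouts, 24 of the 39 members (61.5%) were highest in knockout 3, 11 in knockout 2 and 4 in knockout 1. Over all genes tested, 29.4% were highest in knockout 3 and 33.0% in knockout 2. Knockout 1 was the lowest knockout for 33 of the 39 members. Over the whole table it was the lowest for 1322 of the 1604 genes called higher and 5320 of all 15171 tested. Of the 28 called members 64.3% were highest in knockout 3 and 32.1% in knockout 2, against 40.1% and 56.9% of the 1604 genes called higher over the whole table. Knockout 3 also stood apart in the ribosomal RNA gene Rn45s (named after its values were seen), at 22841 CPM against 4854 to 7170 CPM in the other 5 libraries, and the part of this in its member levels was not tested. Among the controls, 28 of the 39 members (71.8%) were lowest in control 2, the library with Y-linked transcripts, against 52.3% of the 1604 genes called higher and 34.2% of all genes tested.

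Macrophage and T cell markers were called higher in most cases, where 10.6% of all genes tested were. Knockout 1 was the lowest knockout for 8 of the 9 macrophage markers and 3 of the 5 T cell markers, as for most members. The summed CPM of 9 macrophage markers was 216, 189 and 212 in controls and 599, 2131 and 846 in knockouts, 8 of the 9 were called higher, and all 9 were highest in knockout 2. The 5 T cell markers summed to 3.93 to 6.30 CPM in controls and 16.4, 45.8 and 13.9 CPM in knockouts. Of these, 4 of 5 were called higher and all 5 were highest in knockout 2. Over all genes tested 33.0% were highest in knockout 2, and 56.9% of the 1604 genes called higher were. The 6 NK cell markers summed to 1.49 to 2.10 CPM in controls and 3.58, 12.5 and 4.52 CPM in knockouts (1 of the 3 tested was called). The 4 B cell markers summed to 2.70 to 4.98 CPM against 5.64, 26.8 and 10.5 CPM, and the 6 neutrophil markers to 4.37 to 7.86 CPM against 7.06, 30.3 and 12.9 CPM, with 0 called in either list. Marker genes of plasmacytoid dendritic cells, which are known for making type I interferon, had low counts. Siglech, the only tested one, had 9 counts in each control and 19, 20 and 9 in knockouts. Its groups did not overlap in CPM, and it was not called (log2 fold change 0.80, -0.06 to 1.66, adjusted p = 0.152, edgeR). Siglech, Ccr9 and Klra17 together summed to 0.646 to 1.14 CPM in controls and 1.38 to 1.81 CPM in knockouts, and Klra17 had 3 counts in each knockout and 0 in each control.

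Some markers of resident kidney cells differed between the groups as well. The 6 proximal tubule markers summed to 9789, 13027 and 14141 CPM in controls and 4996, 1829 and 1573 CPM in knockouts. Of these, 5 of 6 were called lower, beside 6.64% of all genes tested. The 4 thick ascending limb markers summed to 9424, 8621 and 3790 CPM against 6051, 827 and 1134 CPM, and the 5 markers of distal tubule and collecting duct to 2820, 2553 and 3650 CPM against 3355, 1876 and 478 CPM, with 0 called in either list. The 6 endothelial markers summed to 702, 608 and 345 CPM against 725, 617 and 645 CPM (0 called), and the 4 podocyte markers to 637, 517 and 521 CPM against 903, 621 and 920 CPM (Synpo called higher). The part of any of these cell types in the levels of the interferon-stimulated genes was not tested.

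**Figure D4:**
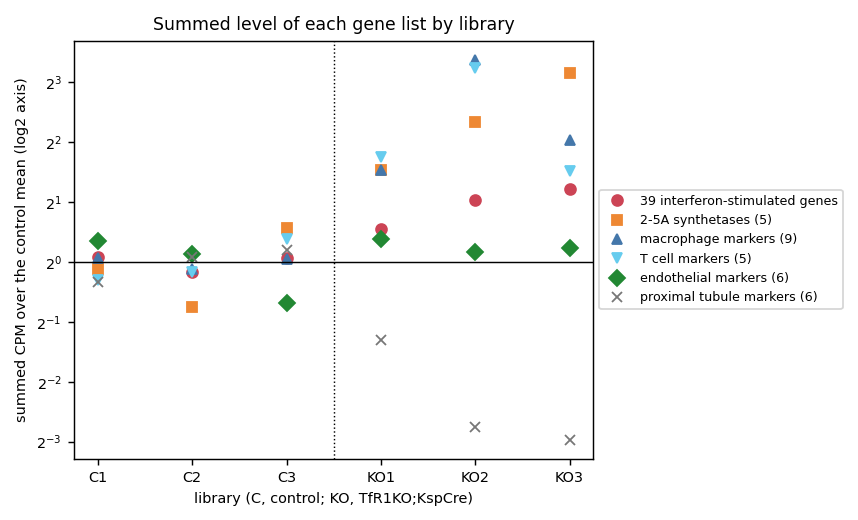
Summed CPM of 6 gene lists in each library (x axis) divided by the mean of the 3 controls (y axis, log2 scale). The 39 genes and the 2-5A synthetases with their like proteins are highest in knockout 3, at 2.33 and 8.96 times the control mean. Macrophage and T cell markers are highest in knockout 2, at 10.4 and 9.46 times, and proximal tubule markers are below 1 in the 3 knockouts.

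The rest of the interferon pathway was examined with lists that hold no member. Of its 85 genes, 63 were tested, and 32 were called higher and 0 lower, with a median log2 fold change of 0.88, beside 10.6% of all genes tested called higher and 6.64% lower. Of these genes 0 were called without any 1 control or without knockout 3, and 1 without knockout 2. The interferons themselves were almost without counts. Of 21 interferon genes 18 had 0 counts in all 6 libraries, among them Ifnb1, an early type I interferon of infected cells. A count of 0 allows a level of up to 3 counts, or 0.147 to 0.230 CPM in these libraries (counting error only). Ifnab had 1, 0 and 1 counts in controls and 0 in each knockout, and Ifnz had 3, 0 and 2 counts in controls and 0 in each knockout. Ifng, the type II interferon of T and NK cells, had 1, 2 and 0 counts in controls and 2, 6 and 4 in knockouts. None of the 21 passed the filter on low counts. Reads shared between the similar Ifna genes may be lost under unique mapping, which was not measured.

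Receptors and their signalling proteins were called higher in 4 of 9 cases. Ifnar1 was at 84.9, 80.4 and 81.2 CPM in controls and 114, 125 and 132 CPM in knockouts (log2 fold change 0.59, 0.30 to 0.88, adjusted p = 0.0326, edgeR). Ifnar2 was at 45.2, 40.3 and 43.8 CPM against 56.1, 73.8 and 49.8 CPM, with no overlap but an adjusted p of 0.0917. The receptor chains for interferon-gamma had the largest log2 fold changes among the called genes of this list, with 1.42 for Ifngr1 and 1.04 for Ifngr2. Of these 4 genes, Ifnar1 was highest in knockout 3 and the others in knockout 2.

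In nucleic acid sensing, 10 of 16 genes were called higher. The endosomal RNA sensor Tlr8 went from 0.795, 0.411 and 0.240 CPM to 4.27, 19.0 and 3.52 CPM (log2 fold change 4.17, 2.17 to 6.18), from 16, 7 and 4 counts in controls. The DNA sensor Aim2 (2.75) and the RNA sensor Tlr7 (2.70) followed, with adjusted p-values of 0.0316 to 0.0457 for the 3 genes (edgeR). All 3 were highest in knockout 2, as were 56.9% of all genes called higher. Of all 16 genes of this list 12 were highest there, against 33.0% of all genes tested.

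The interferon-gamma response list had 7 of 14 tested genes called higher. Cxcl10, a chemokine for T cells, rose by 2.39 on the log2 scale, Ciita, the regulator of MHC class II, by 2.20 and Iigp1, an immunity-related GTPase, by 1.64. In MHC class I presentation 8 of 13 were called higher, led by the regulator Nlrc5 (1.74), the class I heavy chain H2-K1 (1.497) and the immunoproteasome subunit Psmb10 (1.37). H2-K1 went from 336, 268 and 343 CPM to 626, 875 and 1174 CPM, so that each knockout lay above each control. Of the 11 genes that brake signalling or clear nucleic acid 3 were called higher. Socs3, an inhibitor of cytokine receptors, rose by 2.87, from 3.73, 2.06 and 4.499 CPM to 26.9, 27.9 and 20.4 CPM. Samhd1, which depletes nucleotides, rose by 0.90 and Adar, which edits double-stranded RNA, by 0.82.

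**Figure D5:**
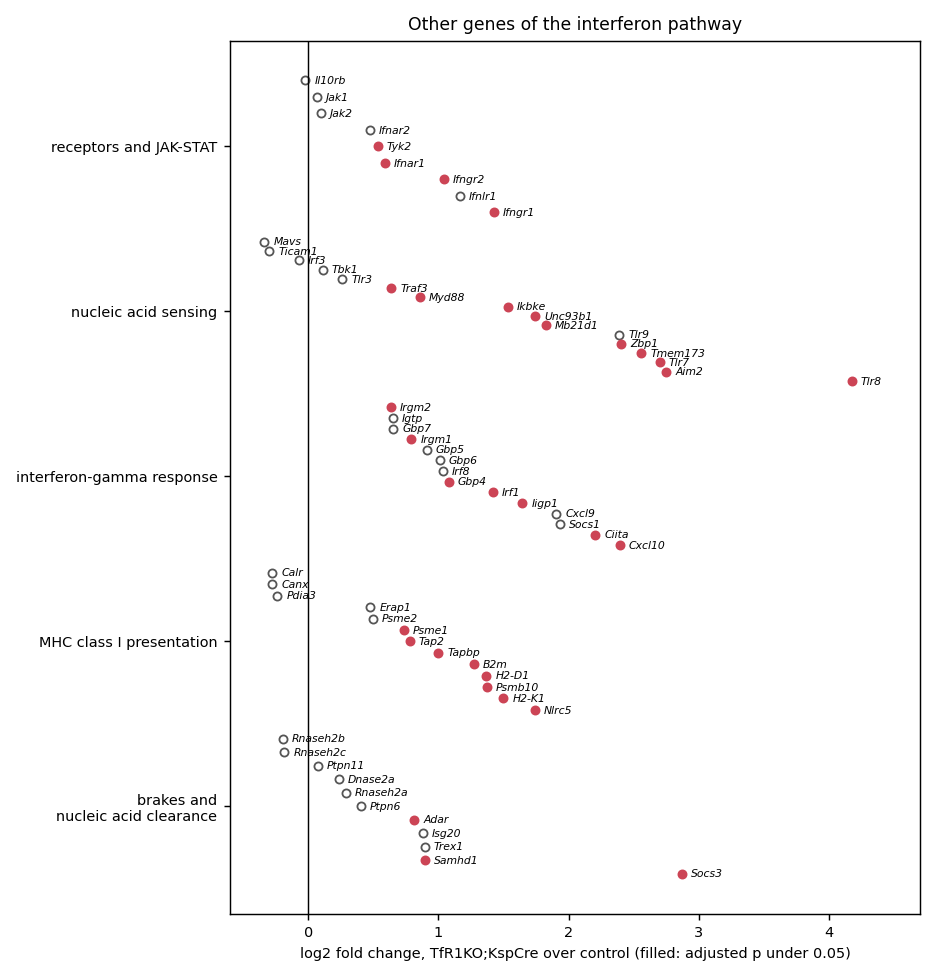
Log2 fold change (x axis, knockout over control, 3 libraries a group) of the 63 tested genes in 5 pathway lists that hold none of the 39 members. Filled points are the 32 genes called higher by edgeR, and none was called lower. Tlr8 at 4.17 and Socs3 at 2.87 lie farthest to the right.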

How the data were processed

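The authors deposited 1 table per group with counts of reads for each gene, which carry no normalisation. Per the methods and the submitters' processing notes, the authors called bases with CASAVA 1.8.2, trimmed reads with Trimmomatic, aligned them to mm9 with TopHat2 2.0.11, kept uniquely mapped reads and counted them with HTSeq. The gene annotation and strand setting were not given in the sources used here. Unique mapping lowers the counts of genes with near-identical copies, and reads of overlapping genes may be lost or misassigned.

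Groups were taken from the sample titles. Counts were filtered with filterByExpr (minimum count 10, minimum total 15), which left 15171 of 24422 genes, and normalised by TMM. The groups were compared with edgeR 4.0.16 in R 4.3.3 (quasi-likelihood test, no covariate), with Benjamini-Hochberg adjustment over all genes tested, and a call is an adjusted p under 0.05. The standard error was the log2 fold change over the square root of F, and 95% intervals use the t quantile of the fit. Log2 levels per library used a prior count of 2. Replicates differed by 55.9 to 132 chi-square units per degree of freedom, so each library counted once. The test was first run on simulated data.

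One gene planned for the pathway lists is not reported here. The 39 members and all lists were chosen with earlier results of these data known. All members are named by role. Values per library are given for each called member and, in each role, for the not-called members of highest level (up to 2). From each pathway list the 3 called genes with the largest change are named, with Ifnar1, Ifnar2 and any interferon with a count. Alternatives were DESeq2 1.42.0 and limma 3.58.1 (voom), 3 scalings, 2 filters, the newer quasi-likelihood version, a replicate block, the Xist-to-Y ratio as a covariate, and leaving out each library. Gene positions are from GENCODE M1 on mm9, where 38 of the 39 names matched (not Ifi27), and 31 of these had no 100-base word shared with another gene. Promoters are from RefSeq on GRCm38.p6.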

Additional observations from a re-analysis of the deposited data

How the results depend on the processing

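The 28 called members had a log2 fold change above 0 under each alternative that tested them (Oas3 was not tested with at least 10 counts in every library). The median over the members ran from 1.24 to 1.70, and the groups did not overlap in 33 to 36 members. Scaling by DESeq2 size factors, upper quartile or library size alone gave 28, 29 and 32 members called higher, and limma-voom 25, beside 10.3%, 12.2%, 19.6% and 7.33% of all genes tested. With library size alone the median of all genes shifted to 0.29, 81.8% of all calls were higher against 61.4% with TMM, and Trim25 changed sign to 0.16. DESeq2's Wald test called 4882 genes against 2612, with 33 members higher and 1 lower (Samd9l). Of the pathway genes limma-voom called 21 against 32. With the Xist-to-Y ratio as a covariate 0 genes, 0 members and 0 pathway genes were called. Leaving out 1 library, the count ranged from 0 to 5332 over all genes, from 0 to 32 over members and from 0 to 44 over pathway genes, with 0 genes without any 1 control, 73 without knockout 2, 2 without knockout 3 and 5332 without knockout 1. The cause was not tested, beyond that these fits have fewer libraries.

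Replicate numbers did not pair the libraries, since the correlations of same-numbered libraries' deviations were -0.13, 0.01 and 0.21. With the replicate block 0 genes, 0 members and 0 pathway genes were called, while 33 members and 5432 of all 15171 genes had an unadjusted p under 0.05 and the smallest adjusted p of a member was 0.0713. Counts were low in the interferon genes (at most 6 in a library), and in controls in Oas3, Mx1 and Tlr8.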
